A study of Homo sapiens with 6 samples.

Results

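The genes described here are 32 members of the p53 pathway: TP73, a relative of p53, and 31 genes known as regulators or transcriptional targets of p53. They were taken from a list of symbols and matched to the Entrez gene IDs of the count table by RefSeq symbol, and all 32 were found among its 28395 genes. RNA was sequenced from MDA-MB-468, an established line of human triple-negative breast cancer (the control, 3 libraries), and from MDA-MB-468-PR, a derivative grown in-house for 2 months in paclitaxel, a microtubule-stabilising drug, at 3 to 4.5 nM (the resistant line, 3 libraries). All 6 samples are labelled untreated. MDA-MB-468-PR descends from MDA-MB-468, and whether its genome still matches that of the control was not tested. The resistant libraries all come from this one derivative. Its differences from the control therefore cannot be told apart from other changes during its culture. Replicate 1 of each line belongs to a batch labelled 2020 and the other 4 libraries to a batch labelled 2021.

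p53 is a transcription factor that is stabilised by DNA damage and other stress. It then switches on genes that stop the cell cycle, repair DNA, adjust metabolism or start cell death, and it also switches on MDM2, a ubiquitin ligase that destroys p53 and so closes a feedback loop. MDA-MB-468 is known to carry a missense mutant of p53, a form that binds its usual target sites poorly, and many of the genes listed also answer to other factors, such as the relatives p63 and p73.

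p53 binds a pair of decamers separated by a short spacer. This element was searched in RefSeq promoter windows of GRCh38.p14 that run from 250 bases before to 50 bases after a gene start, allowing a spacer of 0 to 13 bases. Since the decamer consensus is its own reverse complement, a search of one strand covers both. Of the 32 members, 28 had a window, and GADD45A, PHLDA3, RRM2B and TP53INP1 had none. A pair with at most 2 mismatches was found in 7 of 28 members (25%), against 8.4% of 11090 tested genes with a window. These genes are on the list because they are known p53 targets, so a higher share is no independent result. The best pairs are shown for the members with the closest matches because they let a reader see which promoters carry the element near the start, with the decamers in capitals and the spacer in lower case, on the strand of the gene.
DDB2, chr11:47214979-47214999, plus strand, no mismatch: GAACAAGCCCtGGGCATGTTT
AEN, chr15:88621306-88621325, plus strand, 2 mismatches: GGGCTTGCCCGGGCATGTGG
MDM2, chr12:68808923-68808942, plus strand, 2 mismatches: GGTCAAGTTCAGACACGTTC
TP73, chr1:3690596-3690615, plus strand, 2 mismatches: GGGCAAGCTGAGGCCTGCCC
CCNG1, chr5:163437529-163437557, plus strand, 2 mismatches: GAAAATGCCCccttctcgcGAGAAAGCCC
FDXR, chr17:74872996-74873025, minus strand, 2 mismatches: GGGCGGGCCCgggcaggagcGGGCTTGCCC
SESN1, chr6:109095058-109095088, minus strand, 2 mismatches: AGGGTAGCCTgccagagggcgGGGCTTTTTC
CLCA2, chr1:86424019-86424049, plus strand, 3 mismatches: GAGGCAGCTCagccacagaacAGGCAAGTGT
DDB2 was the only member with a perfect pair, which 0.0361% of tested genes had. Its element starts 5 bases after a gene start. The MDM2 element starts 94 and 101 bases before 2 of the RefSeq starts of the gene. CLCA2 is shown because its RNA differed most between the lines. CDKN1A had at best 4 mismatches in its window. A match is a description of letters and not of binding, and elements outside these windows were not looked at.

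Total counts were 37889818 and 41343499 in the 2020 libraries and 59171296 to 93680129 in those of 2021. A gene with no count may still lie below a floor of 3 counts, which equalled 0.0311 to 0.0808 CPM, a count scaled to the library total and by TMM. Values per library are listed from replicate 1 to replicate 3. The epithelial markers EPCAM, CDH1, KRT8 and KRT18 were abundant in both lines, at means of 344 to 1610 CPM, as were KRT5, KRT17 and EGFR at means of 381 to 5960 CPM. KRT6A was low, at 1.27 CPM in the control and 1.55 CPM in the resistant line. KRT14, a keratin of basal epithelia, fell 4.26-fold from 28.2 to 7.01 CPM (adjusted p = 0.000894), a call that ended only without the batch term (0.127) among the alternatives run. EGFR rose 1.61-fold (adjusted p = 0.0199), a call lost without replicate 1 of either line and without resistant replicate 2 or 3 (0.0625 to 0.0853), without the batch term (0.271) and in the 2021 libraries alone (0.0728). PGR had no count, and ESR1 stood at 2.12 CPM in the control and 1.64 CPM in the resistant line. Among markers of blood cells, PTPRC, CD3E and HBB were at or near 0, whereas CD14 had a mean of 11.3 CPM in the control and 12.4 CPM in the resistant line and CD68 2.27 and 3.29 CPM. Of 5 markers of stroma and vessel, COL3A1 and PDGFRB were near 0 and COL1A1 was at 26.4 and 24.6 CPM, VWF at 1.71 and 1.39 and PECAM1 at 0.446 and 0.324 CPM. No label says that the libraries of a line are separate cultures, and the p-values describe their spread alone, technical or not.

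Of the 32 members, 30 had enough counts to be tested. EDA2R, a receptor of ectodysplasin A2, had no count in any library, and SPATA18, a protein of mitochondrial quality control, had 1 count in resistant replicate 3 and none elsewhere. The libraries were captured with exome probes, and the part of capture in levels compared between genes was not tested. Per kilobase of exon, the mean level over the 6 libraries ran from 190 CPM for PLK2 down to 0.225 CPM for GDF15. CCNG1 followed PLK2 at 46.1 CPM per kilobase, then PERP at 28.9 and GADD45A at 28.3. MDM2 stood at 10.4, TP73 at 3.29 and ZMAT3 at 0.423 CPM per kilobase.

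**Figure D1:**
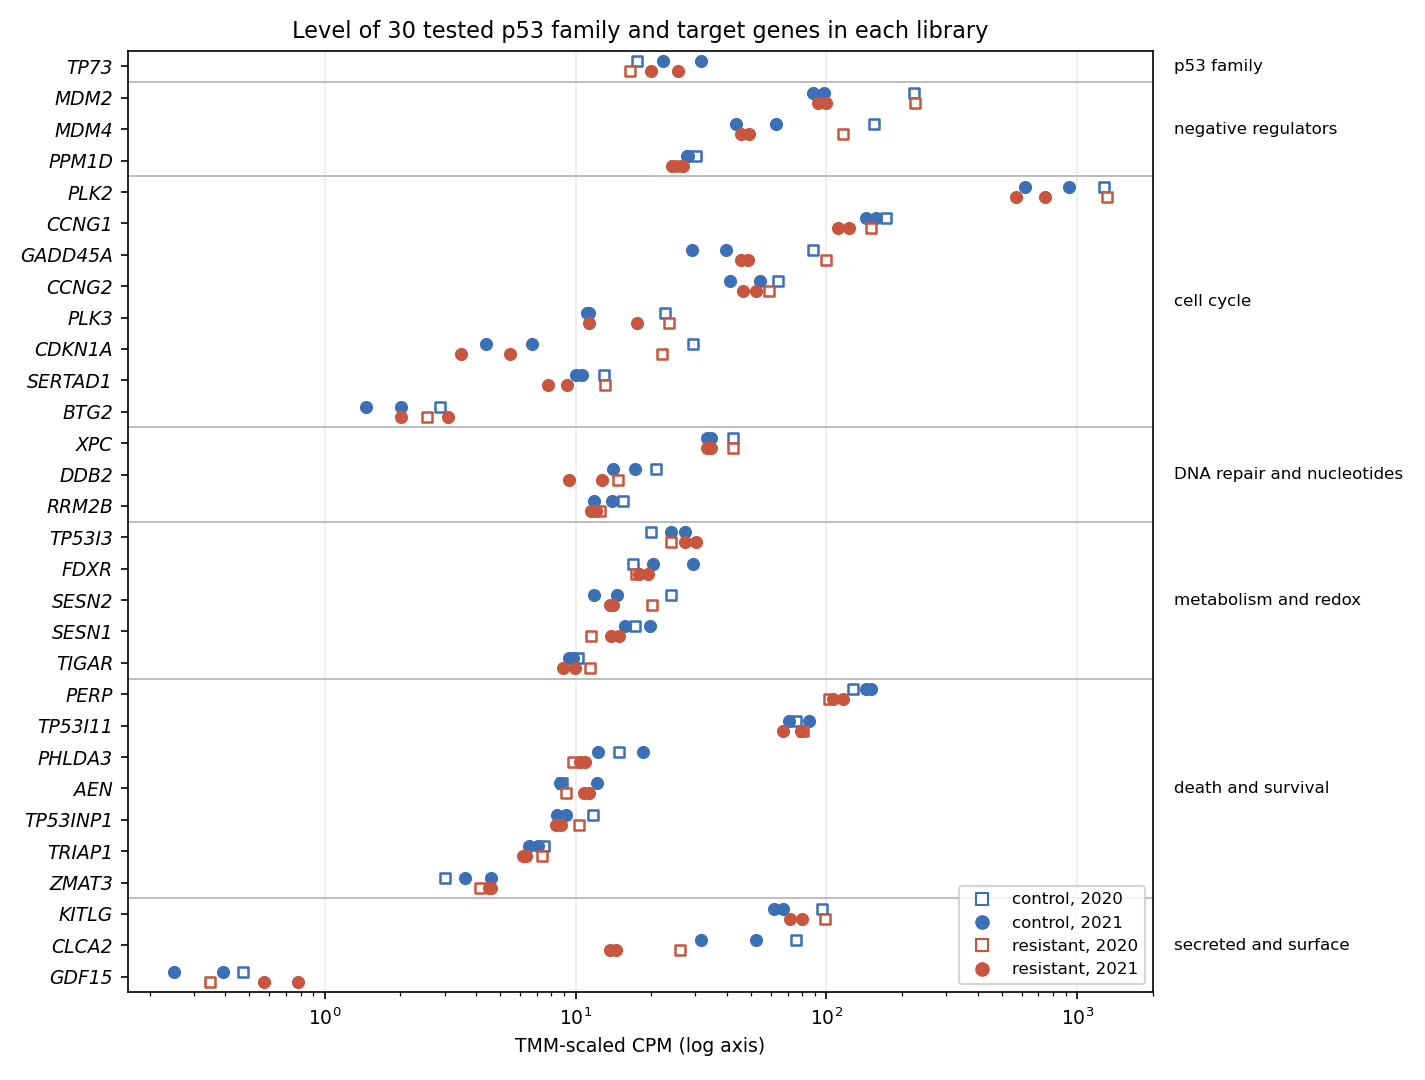
Level of each of the 30 tested members in each library (TMM-scaled CPM, log axis), grouped by role, with squares for the 2020 batch, circles for the 2021 batch, blue for control and red for resistant libraries. For CLCA2 the 3 resistant libraries (13.7 to 26 CPM) lie below the 3 control libraries (31.7 to 75.9 CPM), and for CDKN1A, MDM2, MDM4 and GADD45A the 2020 libraries of both lines lie above all 2021 libraries.

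Few of the p53 target genes differed between the resistant and the control line. CLCA2 and PERP were lower in the resistant line, and no member was called higher. In all, 2 of 30 members fell and none rose (edgeR's quasi-likelihood test in a fit that includes the batch, adjusted p under 0.05 by Benjamini-Hochberg over all 13950 tested genes). Over all tested genes 5.48% were called lower and 6.23% higher, so the members' counts are near or below that background and say nothing particular about them. At an unadjusted p under 0.05, 6 members were lower and 1 was higher, against 12.7% and 13.6% of all tested genes. DESeq2 called 5 members lower and none higher, against 7.77% and 8.03% of all genes in that test. With limma voom 2 members were lower and none higher, against 5.25% and 6.07%. The median log2 difference was -0.09 over the 30 members and 0.00 over all tested genes (fitted value -0.004), and 19 of 30 members were below 0. In 5 members the 3 resistant libraries did not overlap the 3 control libraries, all of them lower, while 10.2% of all tested genes were lower without overlap, 10.7% higher and 20.9% either. These are bulk samples, in which fewer cells expressing a gene and less of its RNA per cell cannot be told apart.

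**Figure D2:**
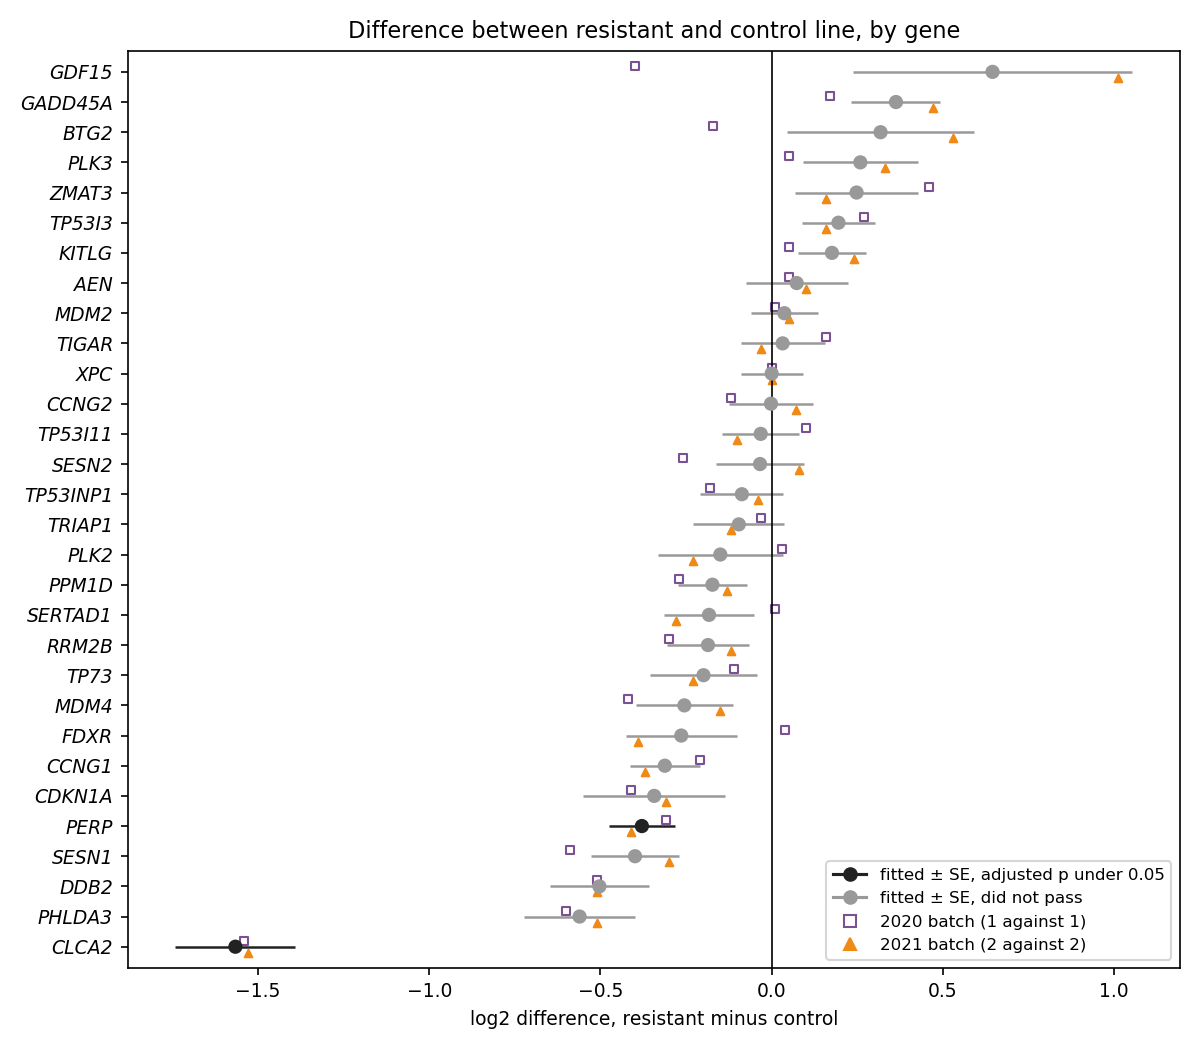
Fitted log2 difference of each tested member between the resistant and the control line, with its standard error, and the same difference within the 2020 batch (squares, 1 against 1 library) and the 2021 batch (triangles, means of 2 against 2). Only CLCA2 (-1.57) and PERP (-0.38) passed the test, and for GDF15 and BTG2 the squares and triangles fall on opposite sides of 0.

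The secreted and surface members held the largest fall. CLCA2 (Entrez gene 9635, chromosome 1, 86424171 to 86456553, GRCh38) encodes a membrane protein related to the regulators of calcium-activated chloride channels and is a known p53-inducible gene. It was at 75.9, 52.5 and 31.7 CPM in the control and at 26, 14.5 and 13.7 CPM in the resistant line. Every resistant library was below every control library, and within each batch the difference was almost the same, -1.54 on the log2 scale in 2020 and -1.53 in 2021. The fitted fall was 2.96-fold (log2 fold change -1.57 ± 0.18 SE, adjusted p = 0.0022), and CLCA2 kept its call without each library in turn. The call ended when the batch term was left out (adjusted p = 0.0657).

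GDF15, a secreted stress cytokine of the TGF-beta family, had few counts. Its raw counts were 19, 22 and 17 for the control and 13, 52 and 55 for the resistant line, or 0.251 to 0.472 CPM against 0.35 to 0.78 CPM. The resistant library was the lower one in 2020 and both resistant libraries were the higher ones in 2021, so that the groups overlap. The difference did not pass (log2 difference 0.65 ± 0.41 SE, adjusted p = 0.355). KITLG, which encodes stem cell factor, the ligand of the KIT receptor, was at 74.8 ± 18.4 CPM in the control and 83.6 ± 14 CPM in the resistant line (SD, n = 3 per group), which did not pass either (adjusted p = 0.294).

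Of the 7 tested members linked to cell death and survival, 1 was called lower and none higher, against 5.48% and 6.23% of all tested genes. PERP (Entrez gene 64065, chromosome 6, 138088505 to 138107419, GRCh38) encodes a membrane protein of desmosomes that p53 and p63 are known to activate. It was at 127, 151 and 144 CPM in the control and at 102, 116 and 106 CPM in the resistant line. The 3 resistant libraries were below all control libraries, by a small margin. The fitted fall was 1.30-fold (log2 fold change -0.38 ± 0.10 SE, adjusted p = 0.0366), with -0.31 in 2020 and -0.41 in 2021. Blocked by replicate number, PERP missed the threshold (adjusted p = 0.056), whereas it passed with crossed numbers in the 2021 batch (0.0244). Its call ended when any library except control replicate 2 was left out (adjusted p of 0.0527 to 0.153), without the batch term (0.188) and in the 2021 libraries alone (0.124).

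PHLDA3, an inhibitor of AKT signalling, was at 14.9, 18.6 and 12.3 CPM in the control and 9.77, 10.9 and 10.4 CPM in the resistant line. Its groups did not overlap, but the log2 difference of -0.56 ± 0.16 SE missed the threshold (adjusted p = 0.0574). PHLDA3 was called lower once control replicate 3 was left out (0.00197), with no filter (0.00657) and by DESeq2 (0.0212). The remaining 5 tested genes of this group were AEN, a nuclease, ZMAT3, an RNA-binding protein, TP53INP1, a protein of autophagy and stress, TRIAP1, a mitochondrial lipid-transfer protein, and TP53I11, with log2 differences of -0.10 (TRIAP1) to 0.25 (ZMAT3) and adjusted p of 0.426 or more.

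TP73 encodes p73, which shares the DNA-binding domain of p53 and can activate many of the same genes. TP73 was at 17.6, 31.6 and 22.3 CPM in the control and 16.4, 20 and 25.5 CPM in the resistant line. The 2 groups overlap throughout, and the difference did not pass (log2 difference -0.20 ± 0.16 SE, adjusted p = 0.461). Reads of the isoforms of TP73 with and without the activating domain are not separated in a gene count.

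The negative regulators of p53 did not pass the test between the lines. MDM2 was at 223, 88.3 and 97.8 CPM in the control and at 225, 92.8 and 99.7 CPM in the resistant line. The values of the 2 lines lie side by side in each batch, and the fitted difference was 0.04 ± 0.10 SE on the log2 scale (adjusted p = 0.846). MDM4, a relative of MDM2 that masks the activating domain of p53, was at 155, 43.5 and 63.1 CPM in the control and 116, 45.8 and 48.9 CPM in the resistant line. MDM4 did not pass (log2 difference -0.26 ± 0.14 SE, adjusted p = 0.296) but did without control replicate 2 (adjusted p = 0.0178). PPM1D, the phosphatase WIP1 that removes activating phosphates from p53 and its kinases, was at 30.1, 28.1 and 27.7 CPM in the control and 25, 24.2 and 26.9 CPM in the resistant line. All resistant libraries of PPM1D were below the control libraries, yet the difference of -0.17 ± 0.10 SE did not pass (adjusted p = 0.316).

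None of the 8 cell cycle members passed. CDKN1A encodes p21, the inhibitor of cyclin-dependent kinases through which p53 arrests the cycle. It was at 29.3, 6.72 and 4.38 CPM in the control and 22.1, 5.49 and 3.5 CPM in the resistant line. Within each batch the resistant mean was the lower one, with log2 differences of -0.41 for 2020 and -0.31 for 2021, but the gap between the batches was larger than that between the lines, which did not pass (fitted log2 value -0.34 ± 0.21 SE, adjusted p = 0.339). BTG2, an antiproliferative cofactor of mRNA decay, was at 2.88, 2.02 and 1.46 CPM in the control and 2.56, 3.09 and 2.02 CPM in the resistant line, with overlapping groups and an adjusted p of 0.502.

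GADD45A, a stress sensor that binds p21 and PCNA, had the highest log2 difference after GDF15. It was at 88.5, 39.6 and 29.1 CPM in the control and 99.8, 48.5 and 45.8 CPM in the resistant line, higher in the resistant line within both batches (0.17 in 2020 and 0.47 in 2021). The difference did not pass (0.36 ± 0.13 SE, adjusted p = 0.114). CCNG1, cyclin G1, which recruits a phosphatase to MDM2, was at 158 ± 14.3 and 128 ± 19.9 CPM (SD, n = 3 per group) and did not pass (adjusted p = 0.0876), although DESeq2 called it lower (0.0296). Its relative CCNG2 had the same mean in both lines within error, 53 ± 11.4 and 52.6 ± 6.11 CPM. The polo-like kinases PLK2 and PLK3 and the CDK4-binding protein SERTAD1 had log2 differences of -0.15, 0.26 and -0.18 (adjusted p of 0.649, 0.367 and 0.418).

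The DNA repair members did not pass, and one of them came near. DDB2, the subunit that recognises ultraviolet damage, carries the perfect element shown above. It was at 21, 17.2 and 14.1 CPM in the control and 14.8, 12.7 and 9.42 CPM in the resistant line, and the difference was -0.51 on the log2 scale in both batches. The fit gave -0.50 ± 0.15 SE (adjusted p = 0.0588). Blocked by replicate number, DDB2 passed (adjusted p = 0.0324), and it missed the threshold with crossed numbers in the 2021 batch (0.0506). DDB2 also passed with DESeq2 (0.0245), with no filter (0.00951) and without control replicate 3 (0.0137). XPC, which starts repair of bulky lesions beside DDB2, was at 42.4, 33.3 and 34.6 CPM in the control and 42.4, 33.3 and 34.6 CPM in the resistant line, a log2 difference of 0.00 ± 0.09 SE. RRM2B, the p53-inducible subunit of ribonucleotide reductase, was at 13.7 ± 1.79 and 12 ± 0.484 CPM (SD, n = 3 per group; adjusted p = 0.369).

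Of the 5 tested members of metabolism and redox control, none passed. SESN1, one of the sestrins, which restrain the growth kinase mTORC1, was at 17.3, 15.8 and 19.7 CPM in the control and 11.5, 14.9 and 13.8 CPM in the resistant line. The groups did not overlap, and the difference of -0.40 ± 0.13 SE missed the threshold (adjusted p = 0.0851). SESN1 was called lower without control replicate 2 (0.0232) and with no filter on low counts (0.0402). SESN2, its relative, differed by -0.03 ± 0.13 SE (adjusted p = 0.898). TIGAR, which lowers glycolytic flux, TP53I3, a quinone oxidoreductase, and FDXR, the ferredoxin reductase of mitochondria, had log2 differences of 0.03, 0.20 and -0.26 (adjusted p of 0.897, 0.286 and 0.342).

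More members differed between the batches than between the lines. The batch term of the same fit was examined after the values had been seen. It called 11 of 30 members higher in the 2020 libraries and none lower, where 11.4% of all tested genes were called higher and 11.5% lower. At an unadjusted p under 0.05, 15 members were higher and 2 lower, against 19.6% and 20.5% of all genes. DESeq2 called 12 members higher and 1 lower (15.2% and 14.2% of all genes), and limma voom 10 and 0 (10.4% and 9.28%). Under upper quartile scaling the counts were 9 higher and 2 lower (TP73 and TP53I3), and those over all genes 1226 and 2086 (8.79% and 15%) in place of 1596 and 1600. The median batch difference was 0.30 over the members and -0.02 over all tested genes on the log2 scale. In 14 members both 2020 libraries were above all 4 libraries of 2021, and 21.5% of all tested genes were so separated. In 3 members, TP73, FDXR and TP53I3, both were below, as in 21.9% of all tested genes.

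Among the members, CDKN1A differed most between batches. Its 2020 libraries had a mean of 25.7 CPM and its 2021 libraries 5.02 CPM, a fitted 5.11-fold difference (log2 2.35 ± 0.21 SE, adjusted p = 0.000548). MDM4 was 2.67-fold higher in 2020 (adjusted p = 0.000889), MDM2 2.36-fold (0.000256) and GADD45A 2.34-fold (0.00113). These 4 genes span arrest, feedback and stress sensing, and their batch calls held without each library in turn. PLK3, PLK2 and CLCA2 were 1.82-fold to 1.83-fold higher in 2020, SESN2 1.63-fold, KITLG and SERTAD1 1.40-fold and XPC 1.25-fold (adjusted p of 0.0111 to 0.0435). The calls of PLK3, PLK2, CLCA2, SESN2, KITLG, SERTAD1 and XPC did not hold with a single 2020 library. Without control replicate 1 the median batch difference was 0.27 over the members and -0.02 over all tested genes. Without resistant replicate 1 these medians were 0.33 and -0.02. Without resistant replicate 3, 7 members were called higher in 2020, against 715 of all 14080 genes tested in that fit. TP73 was the member nearest to a call in the other direction (log2 -0.54 ± 0.17 SE, adjusted p = 0.0502). Larger batch differences than that of CDKN1A occurred outside the members, as in ATF3, a p53 target of a further list (8.98-fold higher in 2020). The 2020 libraries were also shallower, as given above, and the part of depth in the batch difference was not tested.

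**Figure D3:**
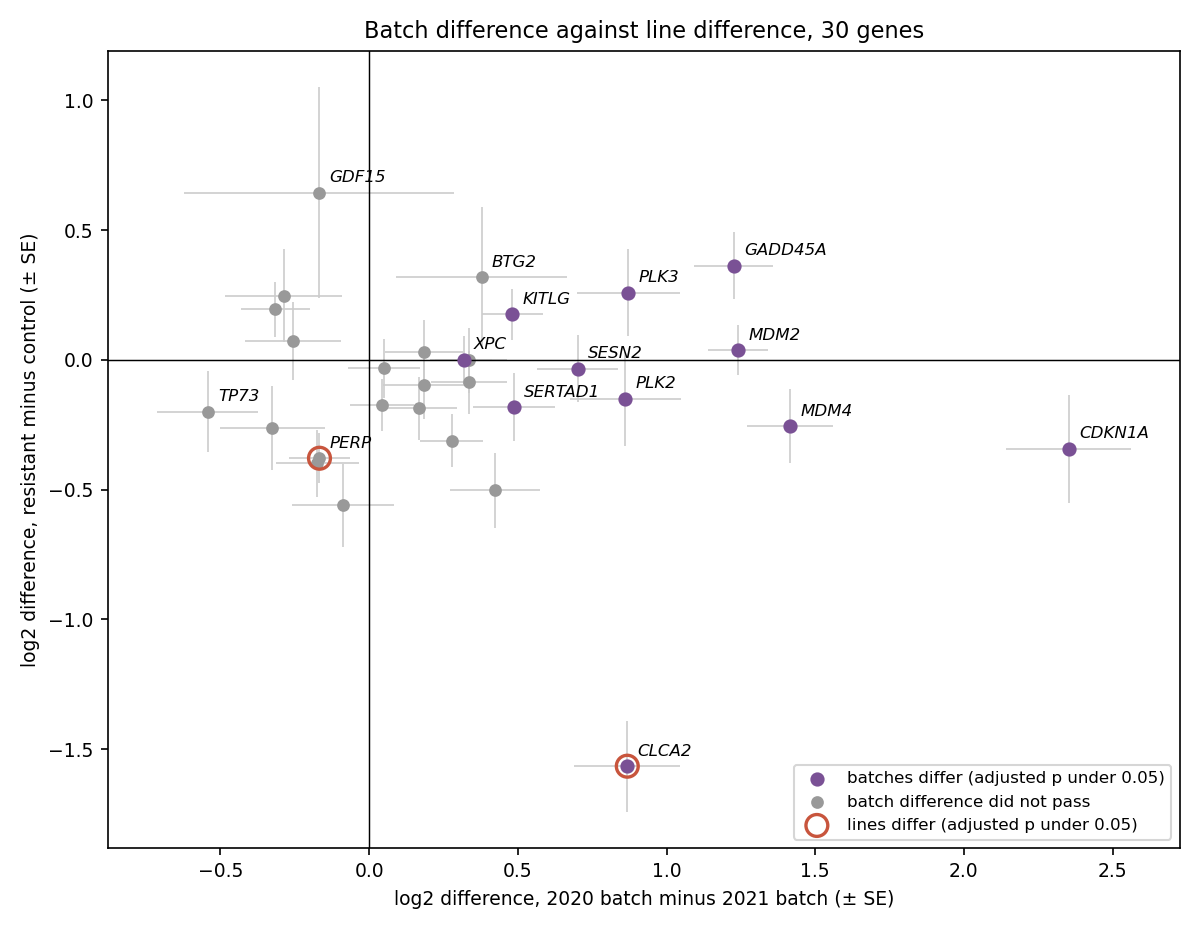
Log2 difference between the 2020 and 2021 batch (x axis) against that between the resistant and the control line (y axis) for the 30 tested members, with standard errors, purple where the batches differed and ringed where the lines differed. The members spread from -0.54 (TP73) to 2.35 (CDKN1A) along the batch axis, and most lie within 0.5 of 0 along the line axis except CLCA2, PHLDA3, DDB2 and GDF15.

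The position of the members was compared with the genes around them. For each member the median log2 difference was taken over the 20 nearest tested genes, 10 on each side. CDKN1A (chromosome 6, 36676463 to 36687332, GRCh38) lies among genes that were lower in the resistant line: of its 20 neighbours between positions 35573590 and 37499893, 15 were called lower and none higher, with a median of -0.75. CDKN1A itself was at -0.34 ± 0.21 SE. Around CLCA2 the median was 0.23, with 1 neighbour called higher and none lower, so the fall of CLCA2 was not shared by its surroundings. Neighbours of PERP had a median of -0.11 with 3 called lower and 1 higher. SESN1, on the other arm of chromosome 6 from CDKN1A, had 6 neighbours called lower and 1 higher at a median of -0.20, and BTG2 had 5 lower at a median of -0.22. A part of these neighbourhoods in the members' own values was not tested.

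**Figure D4:**
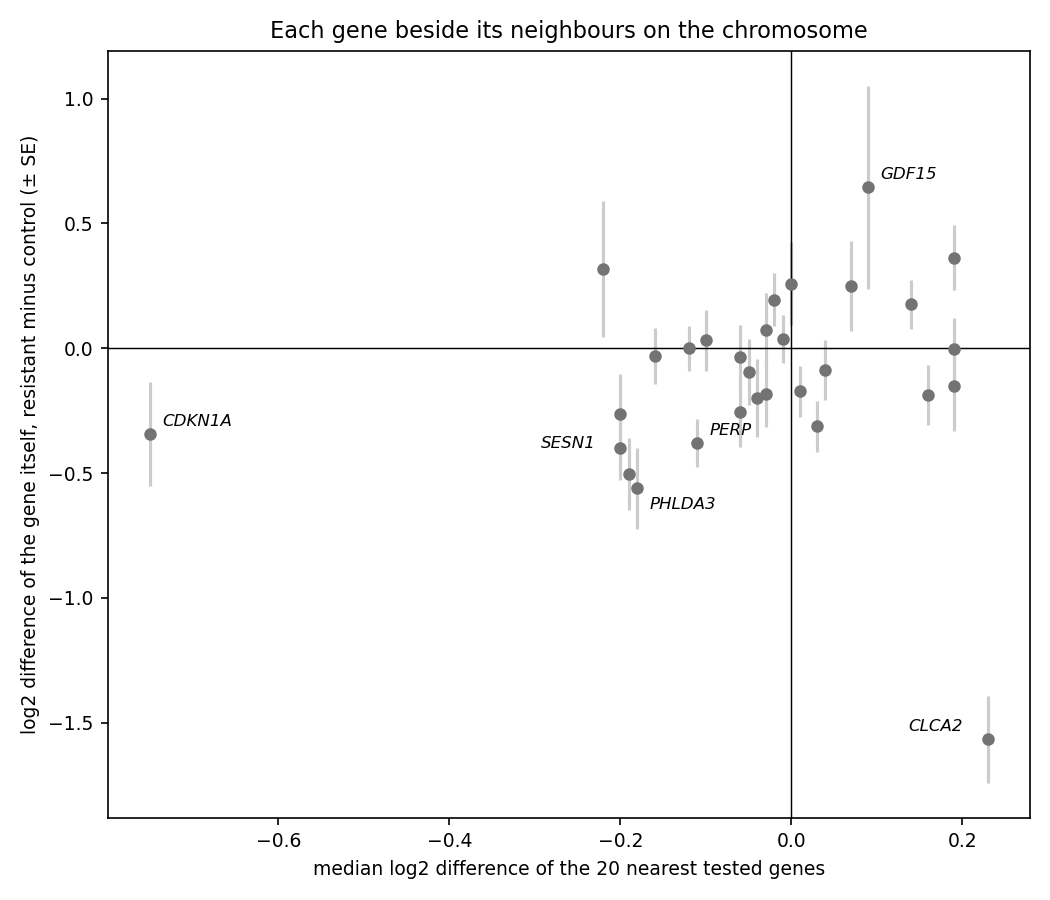
Log2 difference of each tested member (y axis, with standard error) against the median log2 difference of its 20 nearest tested genes (x axis). CDKN1A stands alone on the left at a neighbour median of -0.75, and CLCA2 has a neighbour median of 0.23 and its own value of -1.57.

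Other genes of the pathway came from 5 lists. Among 24 upstream kinases and regulators, 2 rose and 1 fell (median log2 difference 0.07), against 6.23% and 5.48% of all tested genes. TP63, the third gene of the p53 family, which maintains basal epithelia, rose 3.87-fold. It was at 5.29, 4.74 and 5.72 CPM in the control and at 26.3, 24.3 and 11.7 CPM in the resistant line. All resistant libraries were above all control libraries (log2 fold change 1.95 ± 0.28 SE, adjusted p = 0.00667), with 2.30 in 2020 and 1.69 in 2021. The basal keratin gene KRT14 fell as given above. The keratin genes KRT5, KRT17 and KRT6A did not pass, at log2 differences of 0.006, 0.126 and 0.315 (adjusted p of 0.992, 0.693 and 0.78). TP63 lost its call without control replicate 2 (adjusted p = 0.0509) or control replicate 3 (0.0715). TP53BP1, a DNA-break adaptor that binds p53, rose 1.30-fold (adjusted p = 0.0387, and 0.0615 with the replicate block), and KAT5, an acetyltransferase that modifies p53, fell by 0.59 on the log2 scale (0.0402, and 0.0617 with the block). The call of TP53BP1 ended without each library except control replicate 2 (up to 0.193). That of KAT5 ended without control replicate 1 and without each of the 3 resistant libraries (0.0671 to 0.152).

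Of 16 tested p53 targets that act in cell death, 2 rose and none fell (median 0.11), against 6.23% and 5.48% of all genes. At an unadjusted p under 0.05, 6 of them were higher and 3 lower, against 13.6% and 12.7% of all tested genes, and DESeq2 called 3 higher and 1 lower, against 8.03% and 7.77%. The death receptor FAS rose 3.80-fold, from 7.58, 1.7 and 1.65 CPM to 22.9, 7.47 and 7 CPM (adjusted p = 0.000654). FAS was higher in the resistant library or libraries of each batch, although the groups overlap between batches. The call of FAS ended without the batch term (0.316). AIFM2, a suppressor of ferroptosis, rose 1.34-fold (adjusted p = 0.0486, and 0.0827 with the replicate block), a call that ended without each library except control replicate 2 (up to 0.213) and with limma voom (0.0504).

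Of 42 tested other targets 2 rose and 4 fell (median -0.02), against 6.23% and 5.48% of all tested genes. SERPINB5, the tumour-suppressive serpin maspin, rose 3.62-fold. It was at 6.93, 5.29 and 3.82 CPM in the control and 22.5, 17.1 and 17.6 CPM in the resistant line, with no overlap (log2 fold change 1.86 ± 0.15 SE, adjusted p = 0.000654). HSPA4L, a chaperone of the HSP110 family, rose 1.79-fold (0.00793), a call lost without resistant replicate 3 (0.0651). POLH, the translesion polymerase eta, on the same chromosome arm as CDKN1A, fell 1.82-fold from 48.3 ± 5.68 to 26.7 ± 4.44 CPM (SD, n = 3 per group; adjusted p = 0.00174). IER5, an immediate early gene, fell 1.61-fold (0.029, and 0.0592 with the replicate block), a call lost without replicate 1 of either line and without resistant replicate 3 (up to 0.121).

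Of 16 cell cycle genes that p53 is known to lower through p21 and the DREAM complex, 1 fell and none rose. Over all tested genes 5.48% fell and 6.23% rose. All 16 had a log2 difference below 0 (median -0.25), where 49.4% of all tested genes were above 0. This did not hold in every setting: 2 were above 0 under upper quartile scaling and without resistant replicate 2, and 1 with a minimum mean of 1 CPM, in the 2021 libraries alone and without each other library except resistant replicate 3. At an unadjusted p under 0.05, 5 were lower and none higher, against 12.7% and 13.6% of all genes. DESeq2 called 2 lower and none higher (7.77% and 8.03% of all genes), and limma voom none. CCNA2, cyclin A2, fell 1.31-fold (adjusted p = 0.0497, and 0.077 with the replicate block), a call that ended without each library except control replicate 3 (up to 0.234), under upper quartile scaling (0.0598), with a minimum mean of 1 CPM (0.0542) and with limma voom (0.0511). Of 19 tested relatives of the members 1 rose and 4 fell (median -0.22), against 6.23% and 5.48% of all tested genes. PHLDA1, a relative of PHLDA3, rose 1.72-fold, from 15.5 ± 0.525 to 26.7 ± 4.65 CPM (SD, n = 3 per group; adjusted p = 0.00946). EDAR, the ectodysplasin A1 receptor and a relative of the undetected EDA2R, fell 2.60-fold at a mean of 1.58 and 0.67 CPM, and its adaptor EDARADD fell 2.08-fold (adjusted p of 0.0337 and 0.0293). With the replicate block these were 0.0594 and 0.061. The call of EDAR ended without each library except control replicate 3 (0.0607 to 0.136), and that of EDARADD without replicate 1 of either line and without resistant replicate 3 (0.0681 to 0.136). Blocked by replicate number, the counts of risen and fallen genes were 1 and 0 for the upstream regulators, 1 and 0 for the cell death targets, 2 and 2 for the other targets, 0 and 0 for the cell cycle genes and 1 and 1 for the relatives, against 4.97% and 4.37% of all genes.

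**Figure D5:**
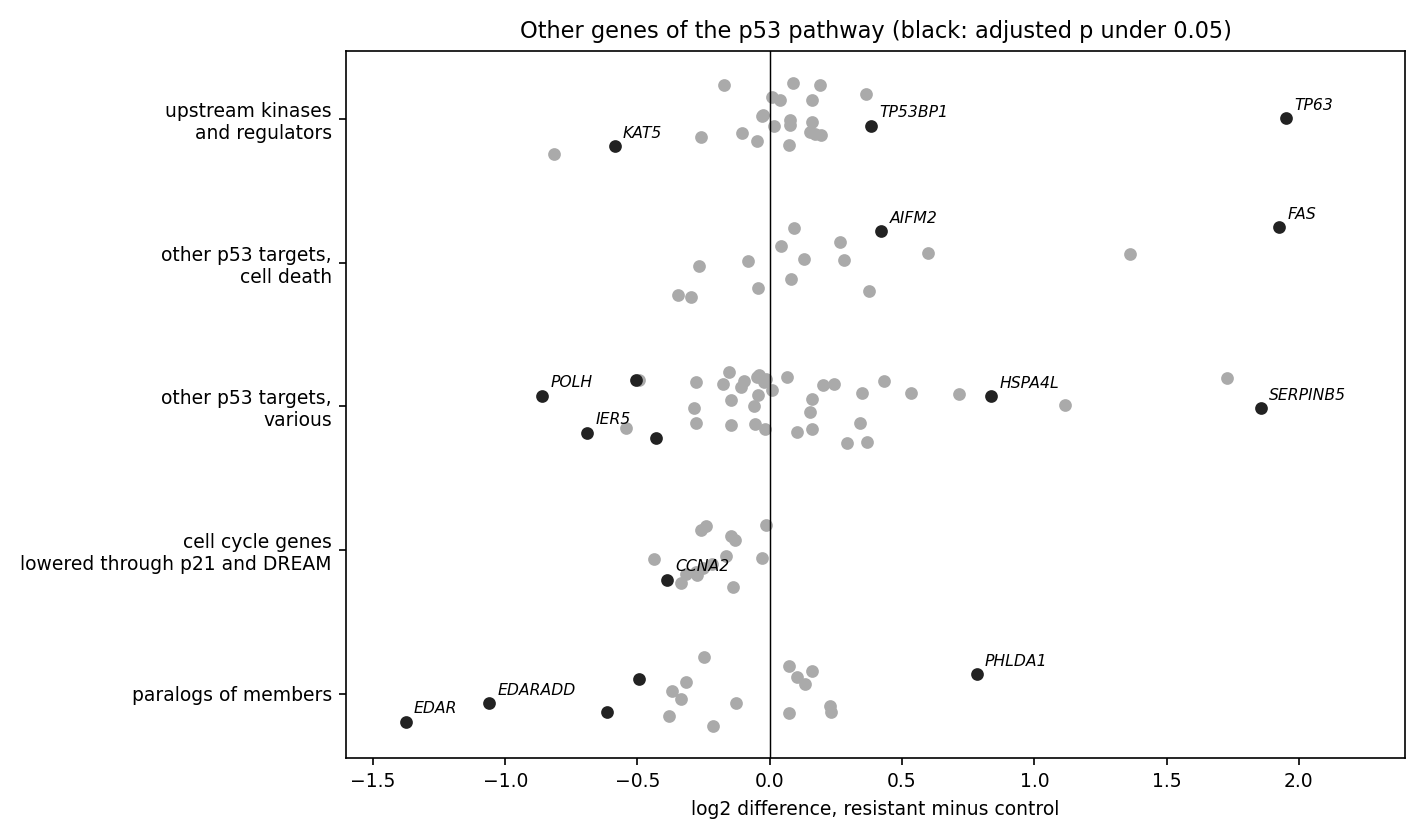
Log2 difference between the resistant and the control line for the tested genes of 5 further lists of the p53 pathway, black where the adjusted p was under 0.05, with the genes described in the text named. TP63, FAS and SERPINB5 lie near 1.9 on the right, and the 16 cell cycle genes all lie left of 0 with the TMM scaling shown (2 lie above 0 under upper quartile scaling).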

How the data were processed

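The authors deposited whole-number counts per Entrez gene ID, not normalised, with 1 column per library. Columns were assigned by the library names that the labels give. The submitters' processing notes name Trimmomatic 0.38, STAR 2.7.8a, featureCounts and the build GRCh38, and libraries were captured with exome probes per the labels' protocols. The strand setting and annotation release are not stated in the sources used here. Since 17 of 32 members overlap another RefSeq gene, their reads may be shared. No source used here mentions molecular identifiers, and floors cover counting error only.

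Genes were filtered with filterByExpr by group (13950 kept), scaled by TMM and fitted with edgeR 4.0.16 (quasi-likelihood, robust, batch and line as terms, 3 residual degrees of freedom). Adjusted p-values are Benjamini-Hochberg values over all tested genes. CPM are TMM-scaled, and log2 differences within a batch used a prior count of 2. DESeq2 1.42.0 and limma 3.58.1 served as alternatives. Exon lengths are from GENCODE 29, and names, positions and promoters from RefSeq (27745 IDs matched).

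The members and lists were chosen with earlier results of these data known. A marker gene of the lists is not reported here. Values per library are given for called members and for TP73, MDM2, MDM4, CDKN1A, GDF15, BTG2 and PPM1D. Those of PHLDA3, DDB2, SESN1, GADD45A and XPC were added after their values were seen. Each further list is named by its 2 largest rises and 2 largest falls among called genes with a mean of 1 CPM or more. Deviations from the group mean correlated across genes at 0.729, 0.143 and 0.155 for control and resistant libraries of the same number. The number was taken from the titles. Replicate 1 is the only library of each line in its batch, so 0.729 includes the batch difference and cannot show pairing by number. Crossed numbers in the other batch correlated more, at 0.57 (control 2 with resistant 3) and 0.477 (control 3 with resistant 2). Pairing by number is therefore not established. A fit with the number as a block is given only as an alternative, where it changes a call. In simulated counts over 13950 genes, 40% of genes changed 1.5-fold and 80.4% of those changed 2-fold were recovered. Of the calls, 9.64% were unchanged genes, more than the threshold of 0.05 allows. The simulation changed a much smaller share of genes than the 11.7% called here. Recovery depends on that share, so these rates need not hold for the real comparison.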

Additional observations from a re-analysis of the deposited data

Results flagged for a closer look

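In 4 of 30 tested members the difference between the lines had one direction in the 2020 pair and the opposite direction in both 2021 pairs. Of all tested genes 10.9% also showed this. This difference between batches was not tested, and the 2020 batch holds 1 library per line. On the log2 scale, resistant minus control, GDF15 was at -0.40 in 2020 and 1.01 in 2021. BTG2 was at -0.17 and 0.53, SERTAD1 at 0.01 and -0.28, and FDXR at 0.04 and -0.39.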

How the results depend on the processing

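Over all genes 1633 passed, against 362 with no batch term, 1012 in the 2021 batch alone and 617 to 1985 when 1 library was left out. For members called lower (2), there were 5 without a filter, 5 with DESeq2 and none (0) without the batch term. There was 1 in the 2021 batch alone and there were 1 to 4 with 1 library left out. The calls lower over all tested genes moved too, from 764 to 1104 of 18878 without a filter and 1084 with DESeq2. They were 165 without the batch term, 448 of 14098 in the 2021 batch alone and 279 to 999 with 1 library left out. No member was called higher except 1, GADD45A, without a filter. For members higher in 2020 (11), leaving out 1 of the 2021 libraries gave 7 to 12. The calls over all tested genes then went from 1596 to between 715 and 2096. Without a 2020 library fewer members were called, and fewer of all tested genes as well. Members lower in 2020 numbered 2 with upper quartile scaling and 1 each without a filter, with a minimum mean of 1 CPM and with DESeq2, and 0 to 1 with 1 library left out. The cause of these shifts was not tested, and leaving out a library also lowers the number of libraries.

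With the replicate number as a block 1303 genes passed, 610 of them lower, and 2 members were lower, CLCA2 and DDB2. Besides the calls given beside the results, the block changed none among the members and the genes named. Within 2021 the differences of replicates 2 and 3 in the lines correlated at -0.361. A block with crossed numbers, added after the data were examined, called 2254 of 13950 genes, 1034 of them lower. It called 4 members lower (CLCA2, PERP, PHLDA3 and CCNG1, not DDB2). Without the batch term, of the 13 genes named from other lists only TP63, SERPINB5 and POLH kept their calls (adjusted p of 0.051 to 0.467 for the rest). No member past the threshold changed sign in any alternative. GDF15, SPATA18 and EDA2R had few or no counts, and the part of depth or probe capture in this was not tested.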
